A study of Homo sapiens with 60 samples.

Results

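Cohesin occupancy in untreated PC9 cells, a human lung adenocarcinoma line, was compared between METTL7A knockout cells and knockout cells in which METTL7A had been put back. The knockout is called KO here. The re-expressing cells are called Rescue, and per the labels they are METTL7A KO cells that overexpress METTL7A with MYC and FLAG tags. Both carried the knockout and neither had received osimertinib, the drug used elsewhere in the study. Chromatin was profiled by CUT&RUN, in which a nuclease tethered by an antibody releases the DNA around the bound protein for sequencing. The antibodies compared were those against PDS5A and RAD21, with 2 samples for each antibody and genotype, so 8 of the 60 samples of the study. Each pair of samples was represented by 1 joint peak list, giving 4 lists. Untreated wild-type (WT) lists, and untreated lists of H3K27Ac and of IgG (a non-specific antibody), were used only for reference.

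The members were chosen by position and by reproducibility: peaks on chromosomes 1 to 22 with a global irreproducible discovery rate (IDR) of 0.05 or less. The choice was made with earlier results of these data known. The IDR measures how well the rank of a peak agrees between replicates. By this rule KO had 901 PDS5A peaks out of 9065 deposited on these chromosomes, and Rescue had 13746 of 32708. RAD21 had 5283 of 18589 in KO and 8993 of 24117 in Rescue. A peak that passed the IDR limit is called listed below, and a peak at any IDR in the lists as used here is called deposited. Every deposited peak carried a value from both replicates, so a peak called in 1 replicate only may be missing from a list. Having no deposited peak thus does not show that a site lacked signal. A peak of 1 genotype was called shared when it overlapped a listed peak of the other by at least 1 bp, and otherwise Rescue-only or KO-only. Since each group had 1 list, no p-value could be given for any comparison between genotypes, and the Wilson 95% intervals cover counting error only. Neighbouring peaks are not independent, so these intervals are too narrow. The lists hold no read total and no measure of METTL7A, so depth is unknown and the genotype labels were not checked. The labels do not say whether the KO and Rescue cells are clones, or whether the replicates were separate cultures.

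Cohesin is a ring-shaped complex that holds sister chromatids together and extrudes chromatin loops. RAD21 is the subunit that closes the ring, so RAD21 peaks mark where the complex accumulates. PDS5A binds the ring through RAD21 and regulates it: with WAPL it helps release cohesin from chromatin, and it also acts where extruding cohesin halts at CTCF-bound boundaries. H3K27Ac is a histone mark of active promoters and enhancers.

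The number of reproducible PDS5A peaks differed between the genotypes far more than the number of RAD21 peaks. Rescue had 15.3 times as many listed PDS5A peaks as KO, and 1.70 times as many RAD21 peaks. Over deposited peaks the ratios were 3.608 and 1.297. The Rescue PDS5A list was also 7.94 times as long as the 1731 peaks of WT cells, and the KO list was shorter than that of WT. For RAD21, WT had 3635 listed peaks, fewer than either KO or Rescue. Listed PDS5A peaks covered 1.03 Mb in KO and 17.01 Mb in Rescue, while listed RAD21 peaks covered 6.11 Mb and 10.6 Mb. The median width of a listed PDS5A peak was 1012 bp in KO and 1095 bp in Rescue, so the covered length followed the number of peaks.

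Other lists were longer in Rescue as well. H3K27Ac had 5420 listed peaks in KO and 14177 in Rescue, a ratio of 2.62, and 5045 in WT. IgG had 6 listed peaks in KO and 10 in Rescue, but 164 deposited peaks in KO against 1036 in Rescue and 1042 in WT, so the KO IgG list was the short one. With every peak on a deposited IgG peak of KO or Rescue left out, the PDS5A ratio was 15.6 and the RAD21 ratio 1.73. Whether a difference in depth or background between the libraries had a part in the lengths of these lists was not tested.

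**Figure D1:**
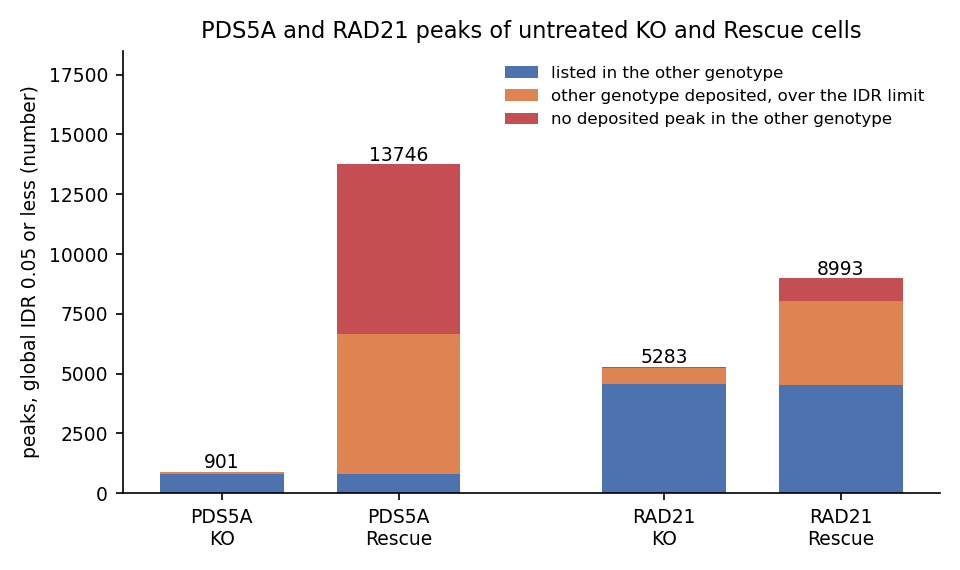
Number of listed peaks (vertical axis; global IDR of 0.05 or less, chromosomes 1 to 22) for PDS5A and RAD21 in untreated KO and Rescue cells, 1 joint list per bar. Colours split each list by its state in the other genotype; 7078 of the 13746 Rescue PDS5A peaks had no deposited KO peak, against 975 of the 8993 Rescue RAD21 peaks.

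Agreement between the replicates differed in the same direction as the peak number. Of the deposited PDS5A peaks, 9.94% passed the IDR limit in KO and 42.0% in Rescue, and Spearman's rho between the replicate values, taken across peaks of the list, was 0.391 and 0.670. For RAD21, 28.4% passed in KO and 37.3% in Rescue, with rho of 0.599 and 0.642. The value of a replicate is the −log10 p that the authors' peak caller gave, and it serves here only to describe and rank peaks within a list. Where the values of a peak in KO and in Rescue are set side by side, no difference in size between the lists is read from them. In the KO PDS5A list, 271 deposited peaks had a value of at least 20 in the first replicate column, 2148 had one in the second, and 227 in both. In the Rescue PDS5A list these numbers were 11054, 8905 and 6876. The KO replicates for PDS5A were therefore far more uneven than those of Rescue. For RAD21, 2067 KO peaks and 4687 Rescue peaks reached 20 in both columns. The peaks nearest the IDR limit in the KO PDS5A list had values of 10.2 and 32.8 just inside it and 11.3 and 25.9 just outside. In the Rescue PDS5A list they had 13.1 and 13.3 inside, and 13.6 and 21.4 outside.

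**Figure D2:**
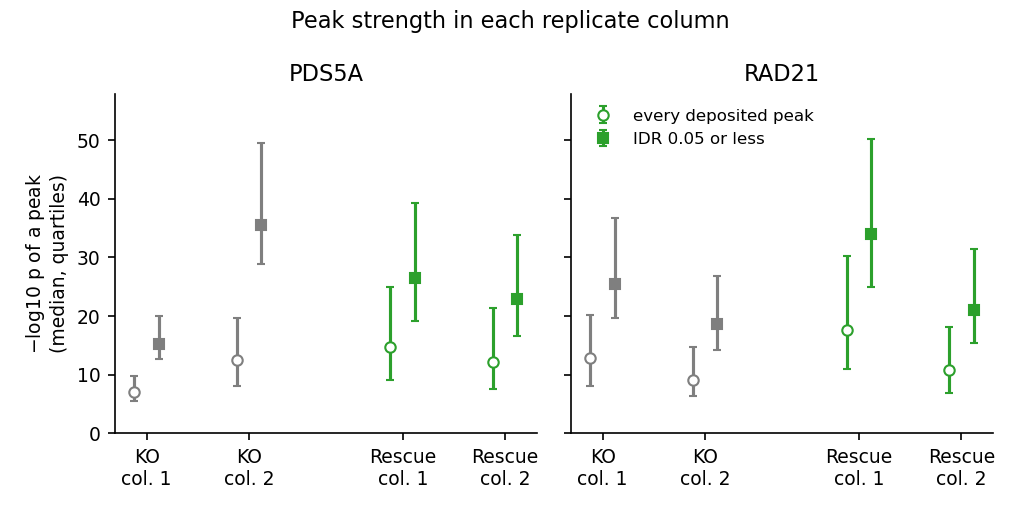
Median −log10 p with quartiles (vertical axis) in the first and second replicate columns of each list, for every deposited peak (open circles) and for peaks with an IDR of 0.05 or less (filled squares). Among listed KO PDS5A peaks the medians were 15.2 and 35.6 in the first and second columns, whereas in Rescue they were 26.5 and 22.9.

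Most PDS5A peaks of Rescue had no listed counterpart in KO, while nearly all KO peaks had one in Rescue. Of the 13746 Rescue peaks, 12939 were Rescue-only, or 94.1% (93.7 to 94.5%). Over all 13837 sites listed in either genotype, Rescue-only sites made up 93.5%, KO-only sites 0.658% and shared sites 5.83%. The KO list had 91 KO-only peaks, 10.1% (8.30 to 12.2%) of its 901. Of the Rescue-only peaks, 5861 lay on a KO peak that was deposited but did not pass the IDR limit. The other 7078, or 51.5% of the Rescue list, had no deposited KO peak, though a peak in a single KO replicate may be missing from the list. In the other direction, a single listed KO peak had no deposited peak in Rescue. It lay at chr17:66196836-66197143, with values of 15.2 and 27.2 in KO, and was singled out after the values were seen. With every deposited peak counted, the Rescue-only share was 73.4% and the KO-only share 1.91%, which is 73.1% and 0.527% of all deposited sites, with 26.3% shared.

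RAD21 peaks were divided more evenly. Of the 8993 Rescue peaks, 4473 were Rescue-only, 49.7% (48.7 to 50.8%), and 4520 were shared. The KO list had 736 KO-only peaks, 13.9% (13.0 to 14.9%). Rescue-only, KO-only and shared sites made up 46.0%, 7.57% and 46.4% of all RAD21 sites, beside the 93.5%, 0.658% and 5.83% of PDS5A. The Rescue RAD21 peaks with no deposited KO peak numbered 975, or 10.8%, against 51.5% for PDS5A. Over all deposited RAD21 sites the shares were 31.1% Rescue-only, 9.27% KO-only and 59.6% shared. H3K27Ac sites lay between PDS5A and RAD21, with 64.7% Rescue-only, 6.54% KO-only and 28.7% shared when listed, and 48.8%, 7.32% and 43.9% over all deposited sites.

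Shared PDS5A peaks ranked higher in the Rescue list than Rescue-only peaks on the median, although 741 of the strongest 1375 Rescue peaks (53.9%) were Rescue-only. Within the Rescue list, the lower of the replicate values had a median of 67.2 at shared peaks and 19.7 at Rescue-only peaks, and the median widths were 1510 and 1073 bp. The strongest shared peak, chr16:50839527-50841837, had values of 480 and 601 in Rescue and of 72.7 and 269 in KO. It lay on listed RAD21 peaks of KO, Rescue and WT. The next, chr1:204775428-204777678, had 360 and 405 in Rescue and 38.1 and 185 in KO. The peak at chr17:39703303-39706538 had 318 and 343 in Rescue and 16.8 and 164 in KO. At all 3 of them the second KO column was far above the first.

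The Rescue list was also limited to its strongest 901 peaks, the length of the KO list. Then 528 of the 901 Rescue peaks, 58.6% (55.4 to 61.8%), overlapped a KO peak, leaving 373 in Rescue and 371 in KO without a partner, numbers that equal lengths make nearly the same. For RAD21 at 5283 peaks each, 69.4% of the Rescue peaks and 69.8% of the KO peaks were shared. With the PDS5A lists at equal length and the Rescue RAD21 list uncut, RAD21 peaks lay under 84.1% of the Rescue PDS5A peaks. They lay under 85.6% of the KO PDS5A peaks, and the intervals overlapped (81.6 to 86.4% and 83.1 to 87.7%).

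The Rescue-only peaks with no deposited peak in KO were ranked by the lower of their replicate values, among those without an IgG peak in KO or Rescue. The first, chr11:75099278-75100472, had 139 and 126 in Rescue. It was on listed RAD21 and H3K27Ac peaks of Rescue, and RAD21 in KO was deposited there over the limit. The second, chr7:142255198-142256243, had 133 and 119, and the third, chr3:186856830-186857884, had 120 and 116. Both lay on RAD21 peaks listed in KO and in Rescue, so RAD21 was reproducibly called there in KO, without a deposited PDS5A peak. The peak at chr2:30935583-30937784 had 166 and 109 and no deposited RAD21 peak in Rescue. The peak at chr15:84915196-84915522, only 327 bp wide, had 135 and 98 and lay on RAD21 of both genotypes without H3K27Ac. All 5 were listed PDS5A peaks of WT cells as well, which held for 210 (2.97%) of the 7078 Rescue-only peaks with no deposited KO peak. WT listing went with strength, however. It held for 52.6% of the 741 Rescue-only peaks among the strongest 1375 of Rescue, and for 0.0728% of those in the weakest 1374.

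Regardless of the KO state, the strongest Rescue-only peak was chr22:30651544-30654369, with 223 and 181 in Rescue and 40.3 and 14.6 in KO. The peak at chr17:56594480-56596869 had 158 and 181 in Rescue and 7.03 and 90.2 in KO, and lay on a deposited IgG peak of WT. The peak at chr1:153481533-153483826 had 177 and 161 in Rescue and overlapped 2 deposited KO peaks. All 3 lay on RAD21 peaks listed in both genotypes, as did 24.9% of all Rescue-only PDS5A peaks. At the first and second of them, 1 KO replicate value was well under the other. The 3 peaks were picked by strength, however, and RAD21 listing went with strength. A listed RAD21 peak of KO lay on 28.1% of all Rescue-only PDS5A peaks, but on 56.55% of the 741 among the strongest 1375 of Rescue. How the share with RAD21 listed in both genotypes varied with strength was not computed.

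The few KO-only PDS5A peaks mostly had a Rescue peak with uneven replicates. The strongest, chr15:89901569-89902504, had 43.0 and 118 in KO, and in Rescue 206 and 5.03. The peak at chr9:98980095-98981095 had 41.1 and 62.2 in KO, and in Rescue 10.8 and 201. The peak at chr4:38180510-38182265 had 40.3 and 48.9 in KO, and in Rescue 9.05 and 119. In each case the Rescue replicates were far apart. Over the 90 KO-only peaks with a deposited Rescue peak, 67 (74.4%) had 1 Rescue value of at least 20 and the other under 10. Among the 5861 Rescue-only peaks with a deposited KO peak, 932 (15.9%) had such uneven KO values. For RAD21 the numbers were 275 of 669 KO-only peaks (41.1%) and 579 of 3498 Rescue-only peaks (16.6%). These limits of 20 and 10 were chosen after the values were seen. All these counterparts had failed the IDR limit, which measures replicate agreement, so uneven values are partly built in. The share of uneven values over all deposited peaks was not computed.

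RAD21 had the same kind of KO-only peaks. The strongest, chr3:150125167-150129347, had 88.5 and 69.0 in KO and 93.9 and 5.78 in Rescue. A deposited IgG peak of Rescue and of WT also lay at this site. The peak at chr2:37896435-37900353 had 79.4 and 66.2 in KO and 6.21 and 115 in Rescue. The peak at chr3:128879924-128881154 had 63.8 and 75.6 in KO and 81.3 and 9.99 in Rescue. All 3 had a deposited Rescue peak with 1 high and 1 low replicate value, which did not pass the IDR limit.

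The strongest RAD21 Rescue-only peaks mirrored this, with uneven replicates in KO. The peak at chr1:204775858-204777657 had 298 and 260 in Rescue and 200 and 6.39 in KO. The peak at chr2:223182754-223184905 had 334 and 193 in Rescue and 147 and 12.8 in KO, and the peak at chr10:21567439-21568397 had 183 and 146 in Rescue and 5.25 and 98.8 in KO. All 3 were listed RAD21 peaks of WT cells, as were 646 (14.4%) of the 4473 Rescue-only RAD21 peaks. These 3 were picked by strength, and the WT share by RAD21 strength was not computed. RAD21 peaks with no deposited KO peak were weaker: the strongest, chr19:47343161-47344283, had 89.0 and 73.3, and the next, chr4:89132753-89133704, had 52.2 and 51.1. The peaks at chr19:43033275-43034029 (73.8 and 45.2), chr1:153325057-153325743 (49.1 and 43.3) and chr18:34152159-34152665 (62.7 and 42.7) completed the strongest 5. None of these 5 lay on a deposited H3K27Ac peak of any genotype, and 4 of the 5 lay on a listed PDS5A peak of Rescue.

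The 975 RAD21 peaks of Rescue with no deposited KO peak were narrow and seldom on H3K27Ac. Their median width was 612 bp, against 1171 bp for shared RAD21 peaks. A listed H3K27Ac peak of Rescue lay on 10.3% of them, against 46.4% of all listed RAD21 peaks of Rescue. A listed PDS5A peak of Rescue lay on 65.1% of them, below the 77.1% of all listed RAD21 peaks of Rescue. A deposited IgG peak of Rescue lay on 3 of the 975, against 492 (5.47%) of all 8993. A deposited RAD21 peak of WT lay on 31.2% of the 975 and on 78.2% of all Rescue RAD21 peaks. The 975 were also weaker, with a median lower replicate value of 15.3 against 28.1 at shared RAD21 peaks of Rescue. They were defined by not overlapping a deposited KO peak, which by itself favours narrow peaks, and narrow peaks overlap others less often. These shares were not compared at equal width or strength.

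The PDS5A peaks listed only in Rescue were then divided by whether RAD21 was listed at the same place. RAD21 of Rescue lay on 6191 of the 12939, 47.85% (47.0 to 48.7%), and was not listed at the remaining 6748. Among shared PDS5A peaks the share with RAD21 was 86.5% (84.0 to 88.7%), and over the whole Rescue list it was 50.1%. RAD21 was listed in both genotypes at 3224 Rescue-only PDS5A peaks (24.9%), in Rescue but not KO at 2967 (22.9%), in KO but not Rescue at 413 (3.19%), and in neither at 6335 (49.0%). Of this last class 4525 had a RAD21 peak that was deposited over the limit, and 1810, or 14.0% of Rescue-only peaks, had none in either genotype. Which class was larger depended on the limit. With every deposited peak of each list, 13658 of 24007 Rescue-only PDS5A peaks (56.9%) had RAD21, and at an IDR of 0.01 2891 of 6914 (41.8%) did. At equal list length 224 of 373 did, with the Rescue RAD21 list also cut to its strongest 5283 peaks. When RAD21 peaks at any IDR in Rescue were set against the listed PDS5A peaks, 82.5% of Rescue-only PDS5A peaks lay on one.

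PDS5A strength went with RAD21 listing. The median of the lower replicate value was 25.95 where RAD21 was listed in both genotypes, 20.1 where it was listed in Rescue only, 16.85 where it was in neither and 16.35 where RAD21 had no peak at any IDR. Median widths followed the same order, at 1354, 1124, 916 and 736 bp. The 413 peaks with RAD21 in KO only had a median of 21.1 and a width of 1323 bp, between the first and second of these classes. The Rescue PDS5A list was divided by rank into 10 equal bins, from strongest to weakest, and the share on a listed RAD21 peak of Rescue was 81.0% in the first, 51.9% in the fifth and 21.3% in the last. The share on any deposited RAD21 peak went from 96.7% to 67.5%. The Rescue-only share went the other way, 53.9% in the strongest bin, 92.6% in the next and 100.0% in the last. The H3K27Ac share had no such slope, at 33.2% in the first bin, 41.6% in the sixth and 27.9% in the last. The split into PDS5A with and without RAD21 was therefore also a split by peak strength.

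**Figure D3:**
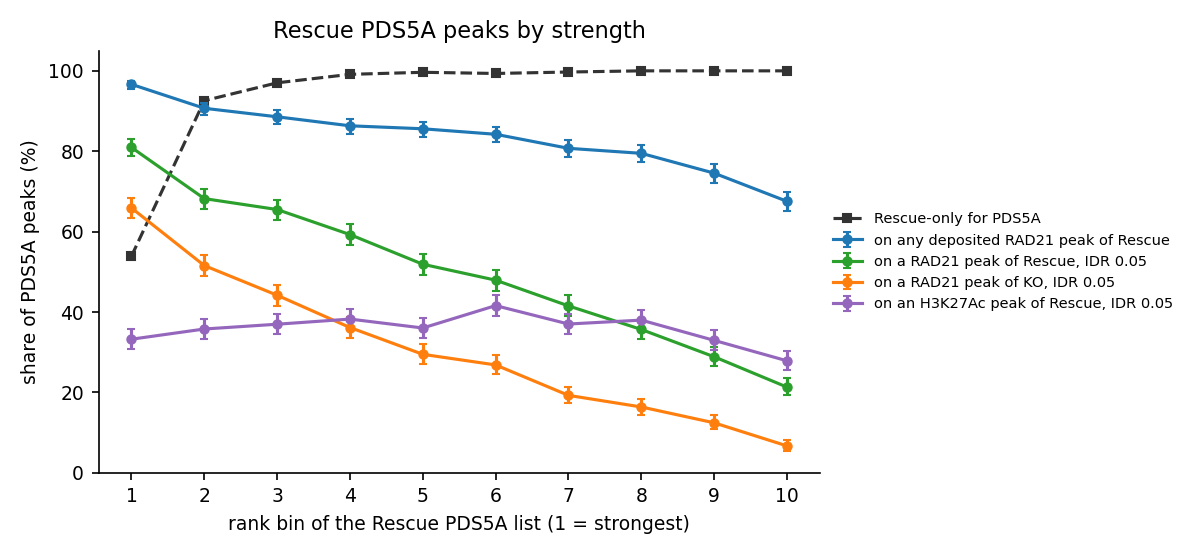
Share of Rescue PDS5A peaks (vertical axis, %) in 10 rank bins by the lower replicate value (horizontal axis, bin 1 is the strongest); points with bars are shares with Wilson 95% intervals. The share on listed RAD21 of Rescue was 81.0% in the strongest bin and 21.3% in the weakest, while the Rescue-only share (dashed) was 92.6% or more from the second bin on.

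H3K27Ac also differed by RAD21 class. A listed H3K27Ac peak of Rescue lay on 47.0% (45.8 to 48.2%) of Rescue-only PDS5A peaks with RAD21 and on 25.3% (24.3 to 26.4%) of those without. Among the Rescue-only PDS5A peaks it lay on 54.9% where RAD21 was listed in both genotypes, 38.4% where in Rescue only, 23.6% where in neither and 2.71% where RAD21 had no peak at any IDR. Where RAD21 was listed in KO only the share was 51.8% (47.0 to 56.6%), above that of RAD21 in Rescue only. Deposited IgG peaks of KO or Rescue followed the order of the first 4 classes, at 8.53%, 4.72%, 2.13% and 0.110% of the peaks, with 2 of the 1810 peaks in the last class. The share with a listed PDS5A peak in WT was 18.2%, 6.91%, 2.34% and 0.939%, and the share with any deposited WT peak was 89.7%, 72.9%, 47.4% and 25.4%. For RAD21 in KO only these shares were 6.54% with IgG, 10.4% with a listed and 83.5% with a deposited WT peak. The peaks without deposited RAD21 thus recurred least often in WT, and they were also the weakest and narrowest.

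Among PDS5A peaks with RAD21 in Rescue but not in KO, the strongest was chr2:223182675-223185023, with 152 and 176 in Rescue and 4.68 and 53.8 in KO. It lay on the RAD21 Rescue-only peak at chr2:223182754-223184905 described above. The peak at chr10:94332733-94335169 had 120 and 107 in Rescue and 4.28 and 40.4 in KO, and lay on a deposited IgG peak of Rescue. The peak at chr20:56088524-56089991 had 114 and 100.3 in Rescue and 18.3 and 16.98 in KO. The peak at chr20:58632035-58633051 had 112 and 96.5 in Rescue and 9.65 and 46.5 in KO. RAD21 was deposited in KO at each of them, over the limit. The chr11:75099278-75100472 peak belonged to this class too, and 4 of the 5 were listed PDS5A peaks of WT, against 6.91% of the whole class. These 5 were picked by strength, and 52.6% of all Rescue-only peaks in the strongest rank bin were listed in WT.

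The strongest PDS5A peaks with no deposited RAD21 in either genotype had lower values. The first, chr17:7962960-7964391, had 82.7 and 67.7 in Rescue and 11.8 and 21.1 in KO. The peak at chr2:65800175-65801216 had 76.5 and 64.0 in Rescue and 18.8 and 16.8 in KO, and the peak at chr7:47219714-47220848 had 90.0 and 63.8 in Rescue and 27.9 and 17.7 in KO. At each of these a KO peak was deposited but did not pass the IDR limit. The peak at chr11:57112420-57113734 had 61.1 and 68.3 in Rescue and 9.45 and 25.9 in KO. The peak at chr9:133582199-133582897 had 88.7 and 60.6 in Rescue and none deposited in KO. WT cells had a PDS5A peak at all 5, listed at 3 and over the limit at 2, against 0.939% listed and 25.4% deposited over the 1810 peaks of the class. Over all Rescue-only peaks in the strongest rank bin, where these 5 fell, the shares were 52.6% listed and 92.3% deposited. None of the 5 lay on an H3K27Ac peak of any genotype at any IDR.

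Rescue-only PDS5A peaks without a listed RAD21 peak of Rescue were defined by not overlapping one, which by itself lowers the share close to one. Distances from other peaks were not computed, so whether these peaks were unusually far from RAD21 was not tested. The median distance of the 6748 to the nearest listed RAD21 peak of Rescue was 51.3 kb, and 1.88% lay within 1 kb. However, 67.9% lay within 1 kb of a deposited RAD21 peak of Rescue. The 1810 with no deposited RAD21 at the site had a median distance of 71.7 kb to a listed RAD21 peak and 22.6 kb to a deposited one.

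Seen from the RAD21 side, PDS5A was listed at most RAD21 sites of Rescue and at few of KO. At the 4512 RAD21 sites listed in both genotypes, PDS5A was listed at 638 in KO, 14.1% (13.2 to 15.2%), and at 3813 in Rescue, 84.5% (83.4 to 85.5%). PDS5A was listed in Rescue with no deposited KO peak at 994 of these sites, and in KO with no deposited Rescue peak at 1. At the 4473 Rescue-only RAD21 sites the shares were 3.06% and 69.7%, and at the 736 KO-only RAD21 sites they were 4.76% (3.44 to 6.54%) and 60.2% (56.6 to 63.7%). PDS5A of Rescue was thus listed more often than PDS5A of KO even where RAD21 was listed only in KO.

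These shares depended on list length. The strongest 901 Rescue PDS5A peaks lay on 13.5% (12.5 to 14.5%) of the shared RAD21 sites, against the 14.1% of the 901 KO peaks, and the intervals overlapped. The strongest 9065 deposited Rescue peaks lay on 74.2% (72.9 to 75.4%), and the 9065 deposited KO peaks on 70.5% (69.2 to 71.8%). At KO-only RAD21 sites the order at 9065 peaks was the opposite, 41.7% (38.2 to 45.3%) for Rescue and 52.3% (48.7 to 55.9%) for KO. The 1731 listed WT peaks lay on 25.4% of the shared sites. At shared RAD21 sites the equal-length shares were thus far closer than those of the full lists, with overlapping intervals at 901 peaks but not at 9065. They were added after the full lists had been seen.

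**Figure D4:**
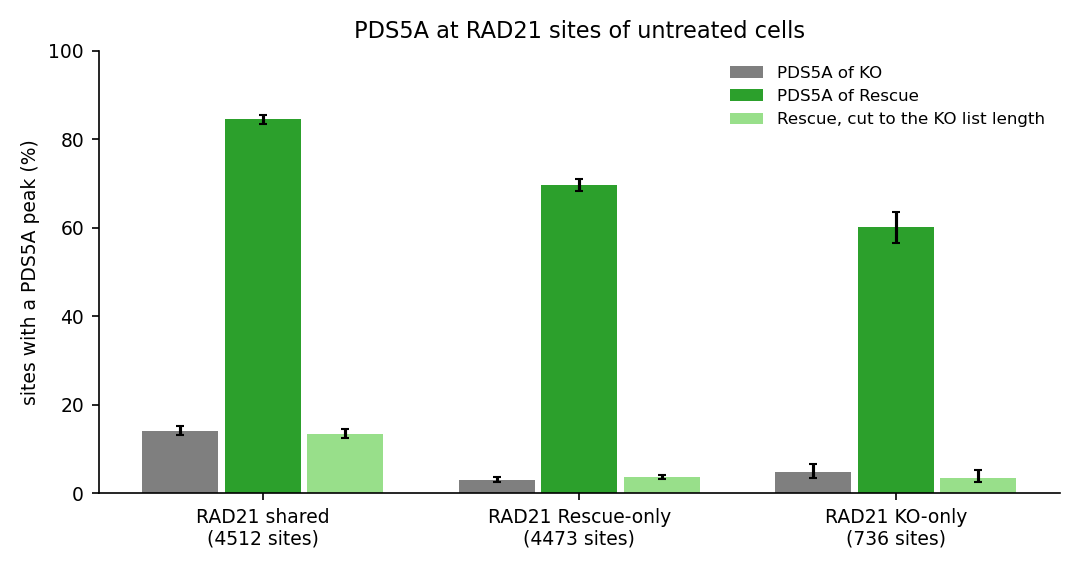
Share of RAD21 sites with a listed PDS5A peak (vertical axis, %) for RAD21 sites shared by KO and Rescue, Rescue-only and KO-only; bars are PDS5A of KO, of Rescue, and of Rescue limited to its strongest 901 peaks, with Wilson 95% intervals. At shared sites the bars stand at 14.1%, 84.5% and 13.5%.

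Shared RAD21 sites were also divided by H3K27Ac. PDS5A of Rescue was listed at 85.4% of the 1291 sites with H3K27Ac in both genotypes, 83.0% of the 1108 with it in Rescue only, 85.3% of the 1899 with it in neither and 80.4% (74.5 to 85.1%) of the 214 with it in KO only. PDS5A of KO was listed at 10.5% (8.98 to 12.3%), 12.7% (10.9 to 14.8%), 17.6% (15.99 to 19.4%) and 12.2% (8.43 to 17.2%) of the same sites. In KO the share was thus higher at RAD21 sites without H3K27Ac than at those with it in both genotypes, and the intervals did not overlap.

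PDS5A peaks listed only in Rescue lay on shared and on Rescue-only RAD21 peaks in similar numbers. The Rescue RAD21 list itself was split nearly evenly, 4520 shared to 4473 Rescue-only. Of the 12939 PDS5A peaks, 3226 overlapped a RAD21 peak shared with KO and 2984 a Rescue-only RAD21 peak. Of the 4520 shared RAD21 peaks, 71.4% (70.1 to 72.7%) carried a Rescue-only PDS5A peak, and 84.5% carried any listed Rescue PDS5A peak. Of the 4473 Rescue-only RAD21 peaks, 66.85% (65.5 to 68.2%) carried a Rescue-only PDS5A peak, and 69.7% any listed one.

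Where PDS5A and RAD21 peaks overlapped, their centres lay close together in both genotypes. The median distance was 99 bp over 674 pairs in KO (quartiles 43 and 187 bp) and 97 bp over 6951 pairs in Rescue (quartiles 43 and 186 bp). Centres were within 250 bp in 82.8% and 83.4% of the pairs. The PDS5A peak was the wider of the pair in 53.7% of KO pairs and in 74.6% of Rescue pairs. Its median width in these pairs was 1070 bp in KO and 1269 bp in Rescue, whereas that of RAD21 was 976 and 1022 bp. Over all pairs the median centre distances were thus alike, and the widths were less so. Only overlapping pairs were counted, which by itself keeps centres close, and distances for unrelated peaks were not computed. In KO the median was 146.5 bp over the 64 pairs with a KO-only PDS5A peak and 97 bp over the 610 with a shared one. In Rescue it was 95 bp over the 6235 pairs with a Rescue-only PDS5A peak and 118 bp over the 716 with a shared one.

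**Figure D5:**
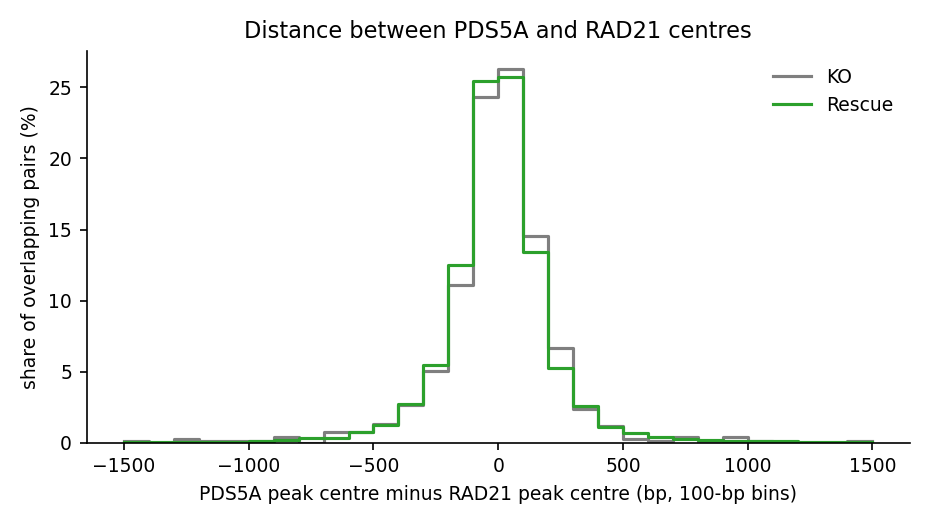
Signed distance from the RAD21 peak centre to the PDS5A peak centre (horizontal axis, bp, bins of 100 bp) for overlapping listed pairs, as a share of pairs (vertical axis, %), in KO and Rescue. Both curves peak at 0, with 24.3% and 26.3% of KO pairs and 25.45% and 25.7% of Rescue pairs in the central bins.

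Rescue-only PDS5A peaks were spread over all chromosomes. The ratio of Rescue to KO PDS5A peaks ran from 10.3 on chromosome 20 to 40.3 on chromosome 4, where KO had 9 peaks, and the RAD21 ratio from 1.45 on chromosome 5 to 2.22 on chromosome 21. The share of Rescue-only PDS5A peaks without RAD21 was lowest on chromosome 3, at 46.8%, and highest on chromosome 18, at 63.8% (55.6 to 71.3%), with 59.1% (55.5 to 62.6%) on chromosome 17 and 52.2% over all chromosomes. In windows of 1 Mb, 2109 held a listed Rescue PDS5A peak, and 2101 held at least 1 Rescue-only PDS5A peak, with a median of 5. Of these 2101 windows, 1512 had no listed KO PDS5A peak, and only 598 windows held a listed KO peak anywhere. Both counts depend on the unequal lengths of the lists. The window with most was 64 to 65 Mb of chromosome 11, with 36 Rescue-only peaks among 37 Rescue PDS5A peaks. There KO had 1 listed and 20 deposited PDS5A peaks, and WT had 43 deposited. The same window held 22 RAD21 peaks in Rescue and 13 in KO. The neighbouring window, 65 to 66 Mb, had 35 Rescue-only peaks among 42. The most Rescue-only peaks without RAD21 lay at 7 to 8 Mb of chromosome 17, which held 24 such peaks among 33.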

How the data were processed

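The authors processed the reads on GRCh37, and the submitters' processing notes name MACS2 2.2.7.1 and Bowtie2 2.4.2 among the tools, besides SAMtools 1.16, deepTools 3.5.1, bedtools 2.30, FastQC and Trimmomatic. The threshold and control of MACS2, and the version of the IDR program, are not given in the sources used here. The 12 untreated lists used each joined 2 samples. The deposited values were the −log10 p-value of each replicate and the −log10 of the global IDR. No label ties a replicate column to a sample, so they are called first and second. Planned depth was 20 M read pairs per library, per the labels, and realised depth is unknown. The 12 osimertinib lists were not used.

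Peaks on chromosomes 1 to 22 at a global IDR of 0.05 or less were compared by 1 bp overlap with Python 3.11.15, numpy 2.4.6, pandas 2.3.3 and scipy 1.17.1, and the overlap code was tested on simulated data. Shares carry Wilson 95% intervals. With 1 list per group, no test between genotypes was run. Named peaks were, for each antibody and ranked by the lower replicate value, the 5 strongest Rescue-only peaks with no deposited KO or IgG peak and the 3 strongest Rescue-only, KO-only and shared peaks. For PDS5A, the 5 strongest Rescue-only peaks with RAD21 in Rescue but not KO were added, and the 5 with no deposited RAD21 or IgG. The windows with most Rescue-only peaks were also named. The members and lists were chosen with earlier results of these data known. The settings varied were the IDR limit (0.01, or every deposited peak), 50% overlap, the boundaries of each replicate, peaks on IgG left out, equal list length, a minimum replicate value of 5, chromosome X added, and covered length. No GRCh37 genome or annotation was used, so planned counts at promoters, gene bodies and CTCF motifs, gene names and sequences are not given.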

Additional observations from a re-analysis of the deposited data

How the results depend on the processing

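Of 66 planned recalculations of 8 results, 44 stayed close to the value reported (counts within 1.5 times, ratios of list lengths within their 95% interval) and 22 moved. Both ratios stayed above 1 in each recalculation run on them. They were not recalculated for equal list length, which fixes them at 1, nor for 50% overlap or replicate boundaries. With every deposited peak, Rescue-only and KO-only peaks were 24007 and 173 for PDS5A (ratio of list lengths 3.61) and 8194 and 2443 for RAD21 (ratio 1.297), and the PDS5A Rescue-only peaks with and without RAD21 were 13658 and 10349, so that the class with RAD21 was the larger, unlike the 6191 and 6748 reported. At an IDR of 0.01 these were 6914 and 43 (ratio 19.1), 2353 and 442, and 2891 and 4023. At equal list length, with the lists of both antibodies cut, they were 373 and 371, 1618 and 1595, and 224 and 149, again more with RAD21. Equal length keeps fewer Rescue peaks. By covered length the PDS5A ratio was 16.5. PDS5A at shared RAD21 sites, added after seeing the data, was 70.5% in KO and 99.7% in Rescue with every deposited peak, and 13.5% in Rescue at equal length. IgG peaks left out and chromosome X moved none of the 8 results, and overlap of 50% and replicate boundaries none of the 6 counts they were run on. The replicate minimum of 5 could not move any of the 8, because no listed peak of the KO and Rescue lists had a lower replicate value under 9.68. Its recalculations are among the 44, and they say nothing about how stable the results are. No paired analysis was possible because each group has 1 joint list. For the same reason no replicate could be left out. The recalculations with replicate boundaries kept the same joint peaks and changed only their ends, so they do not replace leaving out a replicate. Depth is unknown, so how far it limits the KO PDS5A list was not tested.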
